A study of Mus musculus with 12 samples.

Results

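The Dlk1-Dio3 region of mouse chromosome 12 is an imprinted domain that carries one of the largest groups of microRNA (miRNA) genes in the mammalian genome. Its miRNAs were taken from a NanoString nCounter panel by miRNA number, ignoring letter, arm and star: 57 of the 566 mouse miRNA probes carry 1 of 45 numbers of the cluster. All 45 numbers have a RefSeq gene between Dlk1 and Dio3 in build GRCm38.p6, where their hairpins span chr12:109563692-109743795, or 180 kb. The members were picked by position and name, with earlier results of these data known. The cells were mHypoE-46, an immortalised neuronal line from male embryonic mouse hypothalamus expressing Agouti-related Peptide and Neuropeptide Y, and all 12 libraries came from this 1 line grown in DMEM with fetal bovine serum. The groups were 100 nM insulin for 24 h, vehicle (phosphate buffered saline) for 24 h, 100 nM insulin for 4 h and vehicle for 4 h, with 3 replicates each that the design text calls independent. Per the labels, the pair of times was chosen to compare cells before and after insulin resistance develops in this line.

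In the domain, Dlk1, Rtl1 and Dio3 are protein genes expressed from the paternal chromosome, and Meg3, Rian and Mirg are long noncoding RNAs expressed from the maternal one. The miRNAs are processed from the maternal transcripts. One stretch lies over Meg3 and antisense to Rtl1, so that miR-127, miR-136, miR-431, miR-433 and miR-434 pair fully with Rtl1 mRNA, and a longer stretch between miR-379 and miR-410 lies downstream of Rian and into Mirg. Several members are known from neurons: in rat neurons miR-134 limits Limk1 at dendrites and miR-485 acts in synaptic homeostasis, and deletion of the miR-379/miR-410 stretch in mice disturbs energy balance in newborns.

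The detection threshold of a library was the mean of its negative controls with 2 SD added, and a member that exceeded it in 3 or more of the 12 libraries was called detected and was tested. The mature sequences of 10 of the 11 members that met this come from RefSeq (GRCm38.p6, all on the plus strand of chromosome 12). They are shown 5′ to 3′ because the seed, bases 2 to 8 in capitals, sets which mRNAs a miRNA can pair with, and they run in genome order from chr12:109590459-109590479 (miR-431-5p) to chr12:109743172-109743194 (miR-409-5p). miR-376b-3p and miR-381-3p, which were not detected, stand beside their closest relatives. Where a probe name gives no arm, the arm is the one that miRBase naming gave to the plain name. miR-485 is named only.

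miR-431-5p: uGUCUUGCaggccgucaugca
miR-136-5p: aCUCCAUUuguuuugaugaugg
miR-380-5p: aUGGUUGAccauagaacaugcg
miR-323-3p: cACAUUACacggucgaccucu
miR-376a-3p: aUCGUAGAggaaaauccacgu
miR-376b-3p: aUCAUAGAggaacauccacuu
miR-300-3p: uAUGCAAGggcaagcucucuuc
miR-381-3p: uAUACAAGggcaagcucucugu
miR-539-5p: gGAGAAAUuauccuuggugugu
miR-544-3p: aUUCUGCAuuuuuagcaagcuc
miR-541-5p: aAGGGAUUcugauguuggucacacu
miR-409-5p: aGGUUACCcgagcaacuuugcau

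None of the 10 shared its seed with another of them or with any of the 1679 mature mouse miRNAs in the RefSeq table. These 10 are neighbours on the chromosome and not a family by seed. The closest pairs among the sequences shown differ at 3 bases. With positions counted from the 5′ end and the base of the first-named miRNA written first, miR-376a-3p differs from miR-376b-3p by G4A, A13C and G20U, and miR-300-3p differs from miR-381-3p by G4A, U21G and C22U. In both pairs the change at base 4 lies inside the seed. The panel's probe sequences were not used here, so counts of such near-identical miRNAs are uncertain as to which member was read.

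Of the 57 members, 11 were detected (19.3%), against 5 of 33 probes for viral miRNAs (15.2%), whose targets the mouse genome does not encode, and 184 of the 509 other mouse probes (36.1%). The share of cluster members was near that of the viral probes, for which the labels give no source, so meeting the filter does not show that a miRNA was present. The remaining members comprise 44 that exceeded the threshold in no library and 2 that did so in fewer than 3: miR-434-5p in 2 libraries (29 to 88 counts) and miR-770-5p in 1 library (33 to 108 counts). By place, 2 of 15 members of the Meg3-Rtl1 stretch were detected, 0 of the 2 within Rian (miR-341 and miR-370), and 9 of 40 of the miR-379/miR-410 stretch. Another 9 panel probes belong to the locus under numbers outside the list, and of these 1, miR-432, met the filter, in 5 libraries with 26 to 117 counts.

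Counts of the members were low. The 46 undetected members had 7 to 114 counts per library with a median of 29, and the 11 detected ones had 19 to 225 with a median of 86.5. The 8 negative controls, which have no target at all, spanned 11 to 102 counts with a median of 36.5, and the viral probes 6 to 227 with a median of 36. In each library the median of the 57 members was 0.815 to 1.05 times that library's negative control mean. The same ratio was 0.6 to 1.11 for viral probes and 1 to 1.33 for all mouse probes. A typical member thus counted about as much as a control with no target.

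**Figure D1:**
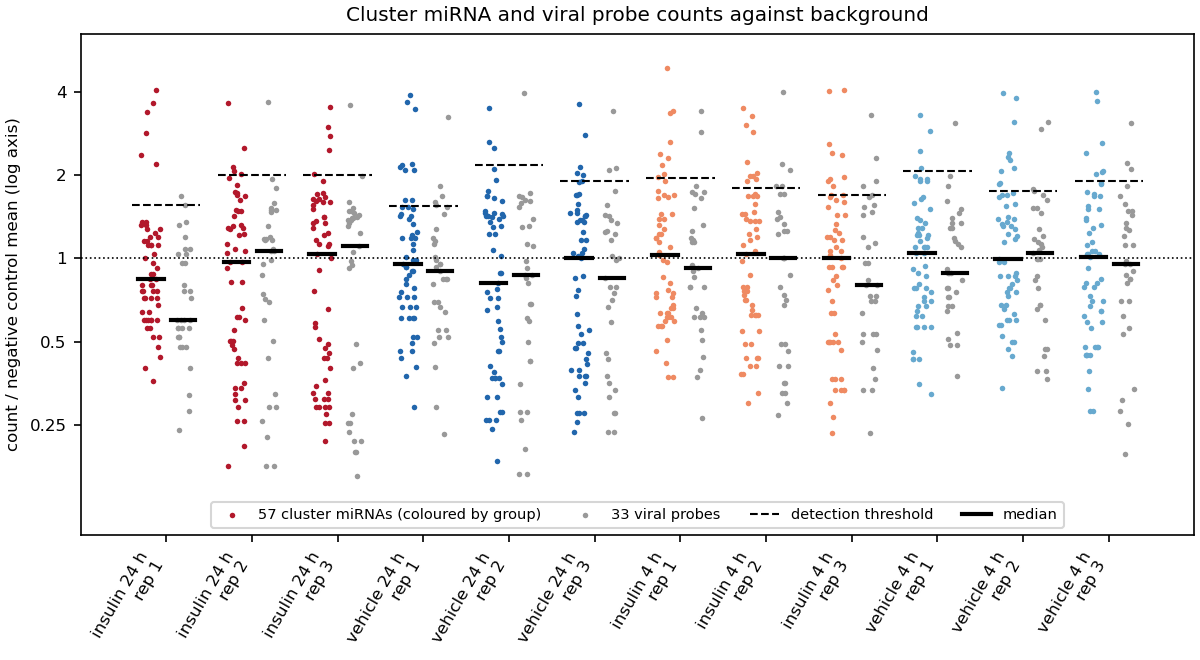
Counts of the 57 cluster miRNAs (coloured points) and the 33 viral probes (grey points) divided by the negative control mean of their library, on a log axis, for the 12 libraries. Thick bars are medians, dashed bars the detection threshold, and the dotted line the negative control mean; the cluster medians lie between 0.815 and 1.05 and 3 to 11 members a library lie above the threshold.

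Library totals over the mouse probes ran from 142158 to 379809 counts. Negative control means ran from 25 to 61.9 counts and thresholds from 38.9 to 124 counts, so the count a member had to reach differed between libraries. Replicate 1 of insulin at 24 h stood apart, with the lowest negative control mean and threshold and the lowest B2m (396 counts) and Gapdh (891 counts). Its Actb (17039 counts) and Rpl19 (4914 counts) lay above the medians of the 12 libraries (16353 and 4148.5 counts). The 24 h libraries ran in lanes 7 to 12 and the 4 h libraries in lanes 1 to 6, so time and lane block cannot be told apart. Of 8 neuron markers 5 were detected: miR-9 exceeded the threshold in all 12 libraries (879 to 1916 counts), whereas miR-124, abundant in mature neurons, did so in none (17 to 95 counts). miR-218 did so in 10, miR-128 in 8, miR-129-3p in 6 and miR-153 in 3 libraries, and miR-137 and miR-138 in none. Of 7 glial and mesenchymal markers, miR-143 (198 to 677 counts) and miR-145 (351 to 905 counts) were above the threshold in all 12 libraries and the other 5 in none. In bulk RNA, fewer cells that make a miRNA and less of it per cell cannot be told apart.

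The 44 members never above the threshold include some that are well studied. miR-127, antisense to Rtl1, had 10 to 25 counts, and miR-134 had 14 to 68. miR-379 and miR-410, which bound the longer stretch, had 11 to 23 and 28 to 53 counts. miR-433 reached 105 counts and miR-381 reached 95, both in 24 h libraries with high background. For 20 of the 44, no library had as many as 40 counts. These values set no lower limit: a miRNA present below background was not detectable here.

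Both arms of 10 hairpins were on the panel, and in no hairpin were both detected. The 5′ arm of miR-409 had 70 to 153 counts and was above the threshold in 9 libraries, against 10 to 29 counts and 0 libraries for miR-409-3p. miR-323 went the other way, with 71 to 123 counts for the 3′ arm (9 libraries) and 21 to 101 for miR-323-5p (0 libraries). The third, miR-380, had 21 to 121 counts for the 5′ arm (4 libraries) and 23 to 48 for miR-380-3p (0 libraries). Probes differ in efficiency, so the arms' counts are not levels on 1 scale. The family members closest to detected ones also stayed below the threshold in all 12 libraries, miR-376b at 15 to 38 counts and miR-376c at 12 to 27.

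miR-539 was the 1 member above the threshold in all 12 libraries. Its counts were 91, 225 and 194 with insulin at 24 h, 135, 189 and 183 with vehicle at 24 h, 155, 120 and 121 with insulin at 4 h, and 107, 152 and 143 with vehicle at 4 h. The highest counts were in the libraries with the highest background, and the correlation with the negative control mean was r = 0.95 over the 12 libraries, which also differ in depth. The viral probe mghv-miR-M1-5, whose herpesvirus is no part of this culture by its labels, behaved alike: 42 to 227 counts, above the threshold in 12 libraries, r = 0.97. miR-539 was the higher of the pair in 6 of 12 libraries, and the ratio of miR-539 to this viral probe ran from 0.816 to 2.17.

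miR-485 and 4 other detected members moved with background in the same way. miR-485, known from rat hippocampal neurons for limiting the presynaptic protein SV2A, had 30, 155 and 165 counts with insulin at 24 h, 75, 135 and 97 with vehicle at 24 h, 105, 75 and 71 with insulin at 4 h, and 91, 92 and 86 with vehicle at 4 h. It was above the threshold in every library except replicate 1 of insulin at 24 h, where its count was lowest, and its r with the negative control mean was 0.93. For miR-380-5p, reported to repress p53 in neuroblastoma, r was 0.93. For miR-431, which promotes axon growth in mouse sensory neurons, it was 0.92 (32 to 104 counts, 3 libraries above, all insulin at 4 h). For miR-541 it was 0.90 (28 to 125 counts, 8 libraries), and for miR-300 it was 0.84 (19 to 128 counts, 5 libraries). In all, r exceeded 0.8 for 6 of the 11 detected members, 25 of the 57 members and 21 of the 33 viral probes.

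The other 5 detected members moved with background to a smaller degree. miR-376a, whose precursor is edited from A to I within the seed in brain, had 102, 93 and 136 counts with insulin at 24 h, 127, 142 and 142 with vehicle at 24 h, 223, 129 and 122 with insulin at 4 h, and 56, 146 and 132 with vehicle at 4 h (r = 0.17). The highest and the lowest of these 12 counts both came from 4 h libraries of replicate number 1. miR-323-3p had 71, 107 and 105 counts with insulin at 24 h, 120, 89 and 102 with vehicle at 24 h, 120, 112 and 78 with insulin at 4 h, and 123, 119 and 93 with vehicle at 4 h (r = 0.26). By the ratio of highest to lowest count it was the most even of the 11 detected members, and it lay below the threshold only in 3 of the 24 h libraries. miR-136 had r = 0.21, miR-544 r = 0.53 (48 to 109 counts, 7 libraries) and miR-409-5p r = 0.65.

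Against a stricter background, fewer members stood out. Only 3 members exceeded the highest of the 33 viral probes in at least 3 libraries: miR-539 in 6, miR-376a in 6 and miR-323-3p in 3. No viral probe can do so by construction, and 109 of the 566 mouse probes did. Replicate 1 of insulin at 24 h alone had 6 members above its highest viral probe, and the other 11 libraries had 0 to 3.

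**Figure D2:**
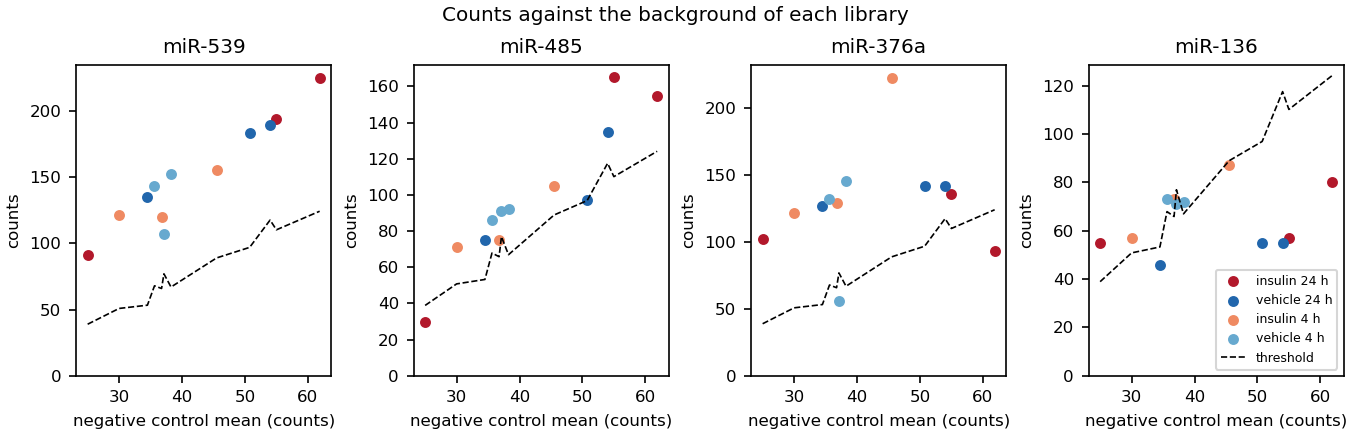
Counts of miR-539, miR-485, miR-376a and miR-136 in each of the 12 libraries (vertical axis) against the mean of the 8 negative controls of the same library (horizontal axis, counts), coloured by group, with the detection threshold of each library as the dashed line. miR-539 and miR-485 climb with the background (r = 0.95 and 0.93), while miR-376a and miR-136 do not follow it closely (r = 0.17 and 0.21).

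The cluster's summed signal was a small part of the total. The negative control mean was subtracted from every probe, with a floor at 0. The 57 members then held 0.296% to 0.729% of the summed mouse signal in the 12 libraries, with a median of 0.398%. With such a floor, scatter around the background also adds to the sum. What was left per probe had a median over libraries of 14.7 counts for members and 11.5 for viral probes. It was higher for members in every library. The share therefore does not measure cluster miRNAs alone. The share averaged 0.378% ± 0.135 with insulin at 24 h, 0.386% ± 0.0286 with vehicle at 24 h, 0.496% ± 0.206 with insulin at 4 h and 0.509% ± 0.139 with vehicle at 4 h (SD, n = 3 each). The ranges of all 4 groups overlapped. The number of members above the threshold was 5 to 6 with insulin at 24 h, 3 to 10 with vehicle at 24 h, 9 to 11 with insulin at 4 h and 4 to 10 with vehicle at 4 h. The share of all 566 mouse probes above the threshold also differed, at 29.9%, 24.7% and 23.0% with insulin at 24 h, 35.5%, 20.8% and 25.1% with vehicle at 24 h, 26.7%, 32.5% and 34.5% with insulin at 4 h, and 22.8%, 30.7% and 28.3% with vehicle at 4 h.

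Changes were tested for the 11 detected members within a fit over all 195 detected mouse miRNAs, with the edgeR quasi-likelihood test and Benjamini-Hochberg adjustment. Levels below are CPM, the usual depth-scaled counts, on the TMM-scaled total of the detected miRNAs, and differences are log2 fold changes with their standard error (SE). Intervals are for counts without background subtraction, so they do not bound the change of the signal above background.

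Insulin for 24 h was compared with vehicle for 24 h, the time at which the labels place insulin resistance. No member passed the test, and none of the 195 miRNAs did (0%). At an unadjusted p under 0.05 there were 4 of 195 (2.05%), of which 1 was a member, miR-409-5p. Of the 11 members, 5 had a fold change above 0, with a median of -0.05 against 0.06 over all 195.

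miR-409-5p measured 751, 472 and 706 CPM with insulin at 24 h, against 438, 437 and 312 CPM with vehicle at 24 h. All 3 insulin libraries lay above all 3 vehicle libraries, and the groups averaged 643 ± 150 and 396 ± 72.3 CPM (SD, n = 3 each). A lack of overlap was found for 12 of the 195 miRNAs (6.15%). The difference was 0.68 (SE 0.27, 95% interval 0.10 to 1.26, edgeR adjusted p = 0.962), so it did not pass the test. The highest insulin value came from replicate 1, the library that stood apart, and without that library the difference was 0.54 (edgeR adjusted p = 0.844). In raw counts miR-409-5p had 85, 133 and 153 with insulin at 24 h, above the threshold in all 3 libraries, and 72, 104 and 70 with vehicle at 24 h, above it in 1. Its sign was positive in all 23 alternative settings, in which its adjusted p ran from 0.288 (replicate number as a block within each time) to 1.00, and its size moved to 1.22 with background subtraction and to 0.33 with scaling to housekeeping mRNAs.

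The other 10 members differed by -0.18 to 0.40 at 24 h, and all had overlapping groups. miR-136 was at the top of that range, at 486, 284 and 263 CPM with insulin at 24 h against 280, 231 and 245 CPM with vehicle at 24 h (0.40, SE 0.25). Its high insulin value came from replicate 1, the library that stood apart. For 10 of the 11 members the 95% interval lay within a 2-fold change either way, and miR-409-5p was the exception. With background subtracted, miR-136 moved to 1.80.

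With insulin for 4 h against vehicle for 4 h, no member passed and again none of the 195 did (0%). The unadjusted p was under 0.05 for 3 of 195 (1.54%) and for 0 of the 11 members. Members differed by -0.26 (miR-323-3p, SE 0.25) to 0.40 (miR-376a, SE 0.33), and 5 of 11 lay above 0 with a median of -0.04 against 0.01 over all 195. miR-376a measured 1113, 634 and 728 CPM with insulin at 4 h and 354, 844 and 676 CPM with vehicle at 4 h, so its difference rested on replicate 1 of either group. All members had overlapping groups, where 10 of 195 miRNAs did not (5.13%). For 10 of 11 members the interval lay within a 2-fold change, with miR-376a outside it (-0.32 to 1.11).

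The insulin responses at 24 h and at 4 h were then compared directly. No member and none of the 195 miRNAs (0%) passed, and at an unadjusted p under 0.05 there were also none (0%). The differences of the members ran from -0.55 (miR-376a, SE 0.48) to 0.53 (miR-136, SE 0.34), and that of miR-409-5p was 0.47 (SE 0.39). The last rested in part on replicate 1 of insulin at 4 h, without which it was 0.91, also not a call. Only 5 of 11 intervals lay within a 2-fold change, so for the other 6 a difference of that size between the times was not excluded. The 5 intervals do not exclude it for the signal above background. With background subtracted, miR-541 went from -0.25 to -0.63, miR-431 from -0.12 to -0.46 and miR-380-5p from -0.10 to -0.36. For miR-323-3p the value went from 0.18 to 0.24 and for miR-539 from 0.18 to 0.23. Averaged over both times, insulin against vehicle gave -0.17 to 0.45 for the members, with all 11 intervals within a 2-fold change. The top value was miR-409-5p (0.45, SE 0.19, edgeR adjusted p = 0.999), which was 0.23 without replicate 1 of insulin at 4 h and 0.82 with background subtracted. No member passed, and none of the 195 passed (0%), with 6 at an unadjusted p under 0.05 (3.08%).

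**Figure D3:**
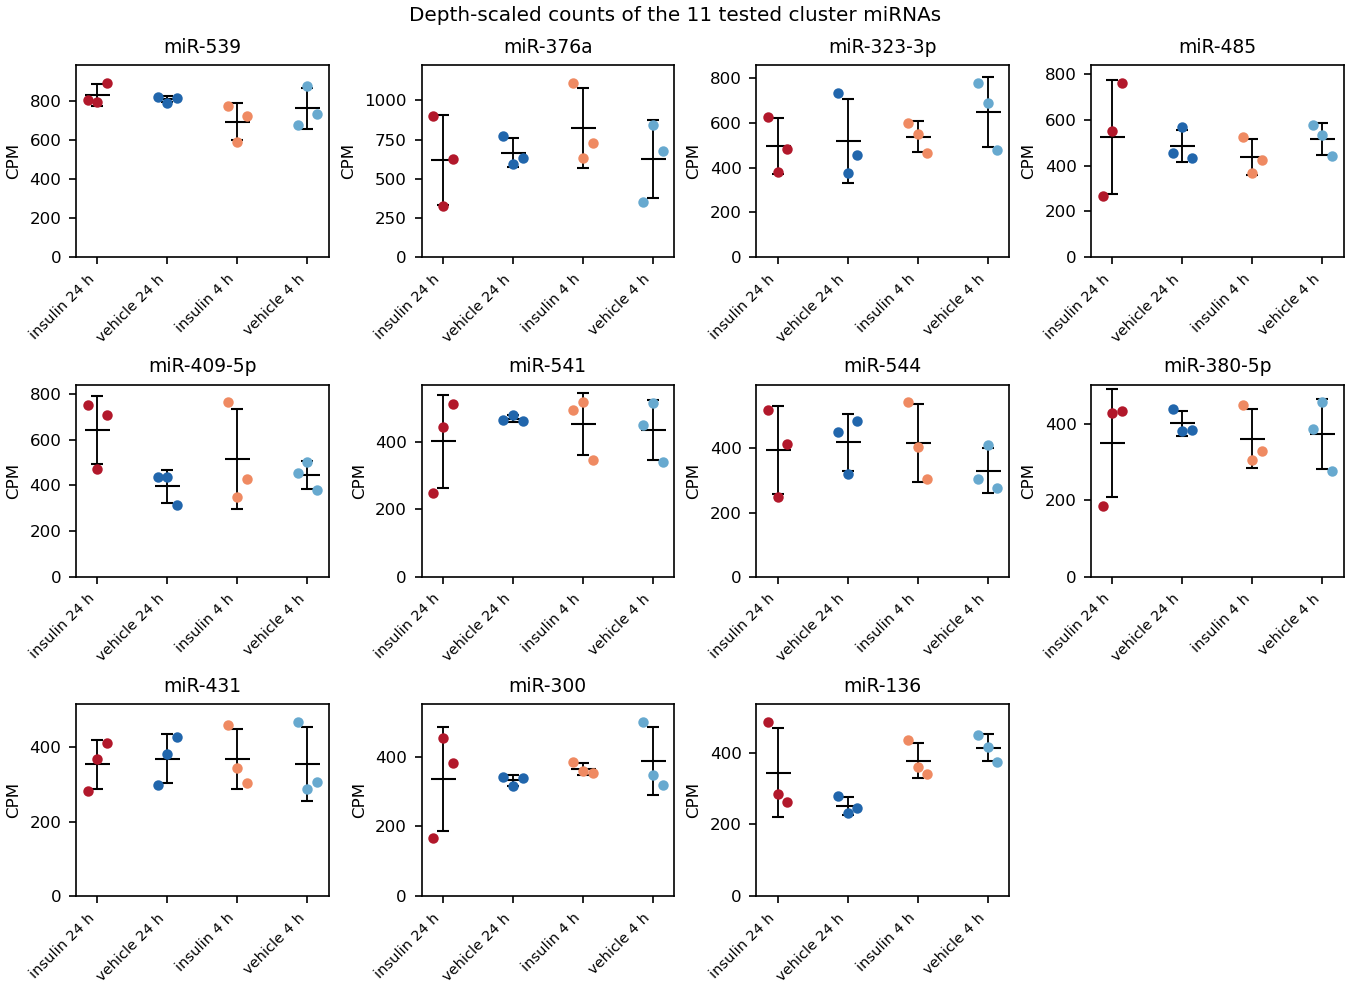
CPM of the 11 detected cluster miRNAs in the 4 groups, 1 point per library with the mean and SD of 3 replicates. miR-409-5p with insulin at 24 h (472 to 751 CPM) lies above vehicle at 24 h (312 to 438 CPM), and miR-136 with vehicle at 24 h (231 to 280 CPM) lies below vehicle at 4 h (374 to 449 CPM); neither passed the adjusted test.

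Time in culture was compared within each treatment, with the limit on lanes given above. In vehicle, 24 h against 4 h, no member passed and none of the 195 did (0%), while 31 had an unadjusted p under 0.05 (15.9%), including 1 member, miR-136. Of the 11 members, 6 lay above 0, with a median of 0.07 against 0.05 over all 195.

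miR-136 measured 280, 231 and 245 CPM with vehicle at 24 h, against 449, 416 and 374 CPM with vehicle at 4 h. The groups did not overlap, as was so for 51 of the 195 miRNAs (26.2%), and averaged 252 ± 25.2 and 413 ± 37.7 CPM (SD, n = 3 each). The difference was -0.72 (SE 0.24, edgeR adjusted p = 0.151). Raw counts of miR-136 were 46, 55 and 55 with vehicle at 24 h and 71, 72 and 73 with vehicle at 4 h, and with background subtraction the difference moved to -2.77 (adjusted p = 0.193). None of the 24 h vehicle libraries and 2 of the 4 h vehicle libraries were above the threshold. Negative control means were 34.5, 54 and 50.8 counts in the 24 h vehicle libraries and 37.1, 38.2 and 35.6 in the 4 h ones, and the part of background in this difference was not tested beyond that setting.

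In insulin, 24 h against 4 h, 7 of the 195 passed (3.59%) and none of them was a member. An unadjusted p under 0.05 was reached by 40 (20.5%) and by 0 of the 11 members. miR-136 had raw counts of 55, 80 and 57 with insulin at 24 h and 87, 73 and 57 with insulin at 4 h, and its difference was -0.19 (SE 0.24). Single libraries set this value, which was -0.51 without replicate 1 and -0.05 without replicate 3 of insulin at 24 h, with no call in either. miR-539 was the 1 member without overlap, at 804, 798 and 895 CPM with insulin at 24 h against 774, 590 and 722 CPM with insulin at 4 h (0.26, SE 0.15, edgeR adjusted p = 0.386), where 37 of the 195 had none (19%). Of the 11 members, 4 lay above 0, with a median of -0.06 against 0.06 over all 195. The span was -0.47 (miR-376a, SE 0.34) to 0.30 (miR-485, SE 0.27).

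Averaged over both treatments, 30 of the 195 miRNAs passed for time, 24 h against 4 h (15.4%), 19 higher and 11 lower, and 0 of the 11 members did. miR-136 came nearest, at -0.45 (SE 0.17, edgeR adjusted p = 0.0936). It passed under 3 of 21 alternative settings: with DESeq2 (-0.49, adjusted p = 0.0308), with scaling to the positive controls (-0.58, adjusted p = 0.0389) and without replicate 1 of insulin at 24 h (-0.63, adjusted p = 0.0052). It was below 0 in all 21, with adjusted p up to 0.203. Markers of blood, endothelium and muscle, of which 4 of 10 were detected, summed to 256 to 761 counts with insulin at 24 h, 457 to 551 with vehicle at 24 h, 572 to 1021 with insulin at 4 h and 494 to 1166 with vehicle at 4 h. Among them miR-223, a miRNA of myeloid cells, had 78, 61 and 25 counts with insulin at 24 h, 136, 53 and 47 with vehicle at 24 h, 610, 497 and 256 with insulin at 4 h and 92, 832 and 470 with vehicle at 4 h, and miR-451, defining for red cells, was below the threshold in every library. The other blood markers were also below it in every library. miR-142-3p had 17 to 89 counts, miR-150 19 to 114, miR-486 9 to 46 and miR-142-5p 1 in each library. In raw counts, which were not scaled for depth, the detected muscle markers, miR-133a and miR-206, did not show the low 24 h counts of miR-223. Another muscle marker, miR-1, was above the threshold in 0 libraries. It had 21, 23 and 16 counts with insulin and 26, 19 and 19 with vehicle at 24 h. At 4 h it had 32, 22 and 21 with insulin and 30, 23 and 21 with vehicle. miR-133a, of muscle, had 25, 162 and 166 counts with insulin at 24 h, 77, 131 and 112 with vehicle at 24 h, 82, 90 and 52 with insulin at 4 h and 93, 76 and 77 with vehicle at 4 h. miR-206, also of muscle, had 34, 165 and 111 counts with insulin at 24 h, 58, 115 and 86 with vehicle at 24 h, 52, 75 and 56 with insulin at 4 h and 70, 65 and 56 with vehicle at 4 h. miR-126-3p, of endothelium, had 36 to 93 counts at 24 h and 60 to 85 at 4 h. It was above the threshold in 4 libraries, all of them at 4 h. Library totals reached 379809 counts at 24 h and 213462 at 4 h, so its overlapping raw counts do not show an equal level. The part of these miRNAs in the result was not tested. The remaining 10 members differed by -0.24 (miR-323-3p, SE 0.18) to 0.17 (miR-539, SE 0.10), and all 11 intervals lay within a 2-fold change. With background subtracted, miR-136 moved to -1.78.

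**Figure D4:**
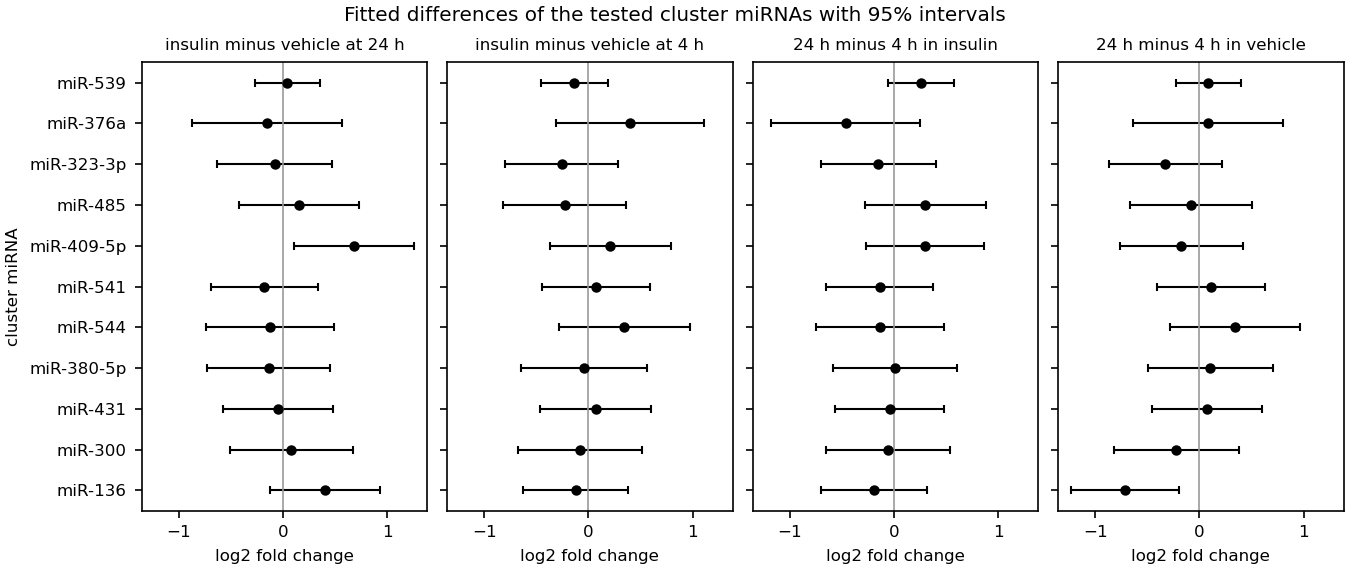
Log2 fold changes of the 11 detected cluster miRNAs (points) with 95% intervals (bars) for insulin minus vehicle at 24 h and at 4 h and for 24 h minus 4 h in insulin and in vehicle. Only the intervals of miR-409-5p for insulin at 24 h (0.10 to 1.26) and miR-136 for time in vehicle (-1.23 to -0.20) leave out 0, and neither passed after adjustment over 195 miRNAs.

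miRNAs of other imprinted loci were read beside the cluster from a list of 8 probes at Gnas, Mest, Igf2 and H19, of which 5 were detected. None of the 5 passed for insulin at 24 h (-0.23 to 0.45) or at 4 h (-0.08 to 0.41). For time averaged over both treatments, miR-335-3p, from an intron of Mest, fell (-0.68, SE 0.14, edgeR adjusted p = 0.00726), as it did in all 23 alternatives. miR-296-5p, from the Gnas locus, rose (1.03, SE 0.24, edgeR adjusted p = 0.0112). It was above 0 in all 23 alternatives and passed in 21, but not with housekeeping scaling (0.61) or without replicate 2 of insulin at 24 h (0.92). miR-335-3p also fell in insulin alone (-0.77, SE 0.20, edgeR adjusted p = 0.0469), a call kept in 10 of 23 alternatives. It was lost on leaving out 8 of the 12 libraries in turn, with positive-control scaling, without a filter, with background subtracted and in both limma fits. The other 3, miR-335-5p, miR-483 and miR-675-5p, did not pass in any comparison of this fit. Alternatives added 9 calls, all for time: miR-296-5p in insulin in 5 and in vehicle in 3, and miR-483 in insulin in 1 (-0.82 with housekeeping scaling).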

How the data were processed

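RNA was counted on an nCounter panel, in which barcodes bound to each target are counted without amplification. The deposited raw table was read under the unit expected count, since its header lines hold values that are not whole; all 7440 probe values were whole, so rounding changed nothing, and the design written earlier had assumed counts. A second deposited table holds a processed signal, per the file headers and values the raw count of a mouse probe times 1 factor per library; 600 of 600 control, viral and spike-in values equalled the raw count. Its software is not named in the labels and headers used here.

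Detected probes (195 of 566) were fitted with edgeR 4.0.16 in R 4.3.3: TMM, quasi-likelihood F test, two-sided, 4 groups in 1 fit (8 residual and 6.77 prior degrees of freedom). Alternatives used DESeq2 1.42.0, limma 3.58.1 on log2(signal + 1) and log2(signal + 10), other scalings, filters and left-out libraries. The fit was tested on simulated data. No background was subtracted, which can pull fold changes of low probes towards 0 and can also shift their sign. For time averaged over both treatments, miR-431 was 0.02 without subtraction and -0.18 with it. Members above 0 there were 6 of 11 without subtraction and 3 of 11 with it. Named were all detected members, members above the threshold in 1 library or more, partner arms and up to 10 others. The members, lists and tests were chosen with earlier results of these data known. Deviations of same-numbered insulin and vehicle libraries correlated at 0.31 to 0.59 at 24 h (3 of 3 pairs over 0.1) and at -0.30 to 0.74 at 4 h (2 of 3). Same-numbered libraries of different times gave -0.43 to 0.21 (3 of 12). Pairs of other numbers gave -0.74 to 0.45, with 12 of 36 over 0.1. At 24 h, replicate 3 of insulin correlated at 0.31 with replicate 3 and with replicate 2 of vehicle. These values do not settle whether the libraries are paired, and the main fit used no pairing.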

Additional observations from a re-analysis of the deposited data

Results flagged for a closer look

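Probes for viral miRNAs lie outside the comparisons, and 5 of the 33 met the filter used for the cluster members. mghv-miR-M1-5 was above the threshold in 12 libraries, with 42 to 227 counts. mghv-miR-M1-9 was above it in 5 libraries (18 to 130 counts) and mcmv-miR-m01-2 in 5 libraries (30 to 111 counts). mcmv-miR-m01-3 was above it in 3 libraries (24 to 108 counts) and mghv-miR-M1-4 in 3 libraries (39 to 77 counts). Of these 5, all except mghv-miR-M1-9 (r = -0.16) had a correlation with the negative control mean over 0.8, a value also exceeded by 6 of the 11 detected cluster miRNAs.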

How the results depend on the processing

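For the 11 detected members, no call was made in 6 of the 7 comparisons under any alternative run, and in the seventh, time averaged over both treatments, the count was 1 with DESeq2, 1 with scaling to positive controls and 0 to 1 when each replicate was left out in turn, always miR-136. Detection gave 7 of 57 members with a threshold of 3 SD (12.3%, against 6.06% of viral and 25.8% of all mouse probes). With the highest negative control as threshold it gave 16 (28.1%, against 24.2% and 40.1%). Settings chosen after seeing the data gave 3 above the highest viral probe (5.26%, against 0% by construction and 19.3%). They gave 34 above the median viral probe (59.6%, against 51.5% and 69.3%). The median summed share was 1.19% with no subtraction and 0.123% with the mean plus 2 SD subtracted. With housekeeping scaling the overall median moved to -0.33 for insulin at 24 h, with 2 of 11 members above 0, and to -0.50 for time in insulin, with 0 of 11 above 0.

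Among all miRNAs, the 7 calls for time in insulin became 21 with DESeq2, 15 with scaling to the 100 most abundant probes, 2 with positive controls, 16 with housekeeping mRNAs, 1 without a filter, 13 with a mean count of at least 100, 16 at 3 SD, 2 with background subtracted, 0 with limma at pseudocount 1, and 0 to 24 when a replicate was left out (24 without replicate 1 of insulin at 24 h). The 0 calls for time in vehicle became 15 with DESeq2, 9 with the 100 most abundant, 1 with positive controls, 7 with a mean of at least 100, 1 at 3 SD, and 0 to 12 when a replicate was left out. The 30 calls for time averaged became 17 with positive controls, 17 with housekeeping mRNAs, 9 without a filter, and 12 to 46 when a replicate was left out. With the replicate number as a block over both times, the calls were 18 for time in insulin and 10 for time in vehicle, none of them a member, and 9 of 12 libraries correlated best with their own number. As a block within each time, a setting chosen after seeing the data, the number left 0 calls in each of the 4 insulin comparisons, with 16 miRNAs at an unadjusted p under 0.05 for 4 h and 11 for 24 h. The cause of these shifts was not tested.

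Depth and background limit what can be said: 44 of 57 members never exceeded the threshold, so a change below it was not detectable, and 3 replicates a group left standard errors of 0.15 to 0.34 on single comparisons.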
